A study of Homo sapiens with 4 samples.

Results

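The noncoding genes of chromosomes 10 and 20 are the rows of the expression table that lie on either chromosome and carry a biotype other than protein coding. ZFAS1 and the SNHG genes, which host small nucleolar RNAs, were left out, and they number 0 on chromosome 10 and 3 on chromosome 20. The rule held 959 of the 32673 genes of the table, 579 on chromosome 10 and 380 on chromosome 20, among 15857 noncoding genes in all. Both chromosomes were chosen by the fold changes of their coding genes in these same 4 libraries, which were mostly below 0 (chromosome 10) or above 0 (chromosome 20) in the imatinib-resistant cells. The values below therefore come from the contrast that chose the chromosomes. They are given as a description of how far the noncoding genes went with the coding genes beside them, and no p is printed for a member. Calls by limma are given with their share over all genes and support nothing about the members.

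Noncoding genes give RNA that is not translated into a known protein. Antisense genes are read from the strand opposite to another gene, and many start from the same stretch of DNA as a coding gene read in the other direction. Intergenic long noncoding RNAs (lncRNAs) lie between coding genes, and some of them bind proteins or act on chromatin. Processed pseudogenes are copies of messenger RNAs put back into the genome, so reads of the parent gene can match them. Small RNA genes include microRNAs, small nucleolar RNAs and their many copies.

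RNA sequencing compared 2 libraries of TF1-BA cells with 2 libraries of TF1-BAR cells. TF1 is an established human line of erythroid and myeloid character that grows with GM-CSF, given at 2 ng/mL per the labels, where the methods of the study state another concentration, and TF1-BA is TF1 infected with a retrovirus that carries p210 BCR-ABL, the fusion kinase of chronic myeloid leukaemia, which makes it sensitive to the kinase inhibitor imatinib. TF1-BAR is its imatinib-resistant derivative, obtained under continuous imatinib and cultured with 2 μM of the drug per the labels. Each line is 1 derivation, the titles of the TF1-BAR libraries read "VECTOR", and whether imatinib was present when RNA was taken is not stated. The labels do not say that replicates were separate cultures, so the spread between them may be technical.

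The 4 sequences shown first are the start regions of the members that the account turns on and that RefSeq holds, 250 bases before to 50 bases after the start in GRCh38.p14, all on the minus strand. ADIRF-AS1 (chr10:86971191-86971490) was lower in the resistant cells with most of its chromosome. PROSER2-AS1 (chr10:11894661-11894960) was higher, against its chromosome. NORAD (chr20:36050911-36051210) had the highest level on chromosome 20, and DLGAP4-AS1 (chr20:36573226-36573525) was a long noncoding gene called higher there. Capitals mark CG, the base pair step at which DNA is methylated.
ADIRF-AS1: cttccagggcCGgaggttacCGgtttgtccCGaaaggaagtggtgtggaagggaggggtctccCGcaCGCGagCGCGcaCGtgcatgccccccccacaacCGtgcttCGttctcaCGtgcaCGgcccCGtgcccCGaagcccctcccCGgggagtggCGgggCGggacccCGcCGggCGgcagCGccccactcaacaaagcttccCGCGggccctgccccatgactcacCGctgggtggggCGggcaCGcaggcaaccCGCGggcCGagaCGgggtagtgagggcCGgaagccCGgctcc
PROSER2-AS1: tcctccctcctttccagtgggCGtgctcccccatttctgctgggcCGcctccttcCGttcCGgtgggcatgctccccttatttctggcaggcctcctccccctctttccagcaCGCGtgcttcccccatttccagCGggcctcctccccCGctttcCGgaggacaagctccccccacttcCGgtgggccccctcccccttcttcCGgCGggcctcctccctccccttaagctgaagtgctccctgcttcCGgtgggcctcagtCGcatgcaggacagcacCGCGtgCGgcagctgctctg
NORAD: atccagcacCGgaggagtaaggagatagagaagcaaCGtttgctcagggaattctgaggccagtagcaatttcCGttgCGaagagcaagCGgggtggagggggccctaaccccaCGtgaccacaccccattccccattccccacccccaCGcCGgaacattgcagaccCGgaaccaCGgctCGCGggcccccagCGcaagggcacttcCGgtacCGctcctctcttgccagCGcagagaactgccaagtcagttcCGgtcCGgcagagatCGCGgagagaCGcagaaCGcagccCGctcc
DLGAP4-AS1: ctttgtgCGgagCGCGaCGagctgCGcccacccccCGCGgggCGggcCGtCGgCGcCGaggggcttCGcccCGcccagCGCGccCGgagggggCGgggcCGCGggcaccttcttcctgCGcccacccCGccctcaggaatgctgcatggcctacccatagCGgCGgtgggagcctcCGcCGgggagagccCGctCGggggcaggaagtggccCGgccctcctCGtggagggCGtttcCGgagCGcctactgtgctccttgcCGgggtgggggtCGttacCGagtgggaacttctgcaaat
The windows hold 33, 17, 23 and 36 CG, where the median over 35116 RefSeq start regions is 14. Start regions with at least as many CG make up 17.2%, 46.0%, 35.8% and 12.7% of all. TATAAA, searched on both strands, is in 0 of the 4 windows and in 11.5% of all. The window of DLGAP4-AS1 also holds the annotated start of the coding gene TGIF2, at base 36573488, which is read in the other direction. RefSeq start regions were found for 99 of the 959 members.

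Of the microRNA genes named below, MIR4678 on chromosome 10 and MIR298 on chromosome 20 are shown with their mature sequences, a choice made after their values were seen, and 34 of 37 microRNA members had a mature sequence in RefSeq. Capitals mark the seed, bases 2 to 8, by which a microRNA pairs with its targets.
hsa-miR-4678: aAGGUAUUguucagacuuauga
hsa-miR-298: aGCAGAAGcagggagguucuccca
The seeds are different. MIR4678 lies at chr10:87503881-87503954 and MIR298 at chr20:58818226-58818313. The libraries were made with a kit for longer RNA, so a value at a microRNA gene counts fragments of longer RNA over the locus and is no measure of the mature microRNA.

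Levels are in FPKM, which divides the fragments of a gene by its transcript length and by the size of the library. Whole fragments behind them were recovered for all 30853 genes above 0, as the smallest possible number for the 16037 of them whose length was fitted, with library sizes from 15465497 to 18042299 fragments. The spread between replicates exceeded counting noise, since chi-square divided by its degrees of freedom was 4.07 for the TF1-BA pair and 7.00 for the TF1-BAR pair. The log2 values correlated at 0.983 and 0.979 between replicates of a line and at 0.946 to 0.956 between lines, over the genes that passed the filter. Progenitor and erythroid markers such as CD34, GATA1 and KLF1 were present in every library, while the T cell gene CD3E had at most 1 fragment, although CD3D had 19.2 and 20.7 FPKM in TF1-BA and 5.74 and 6.36 in TF1-BAR. The epithelial keratin gene KRT18 had 32.2 and 34.2, then 55.8 and 54.6 FPKM, and the endothelial gene PECAM1 from 23.3 to 25.7 FPKM. The part of these genes in the results below was not tested. In bulk RNA, a smaller share of cells of one kind and less RNA per cell cannot be told apart.

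Most of the 959 members were hardly read. On chromosome 10, 47 members were listed at 0 in every library, 389 were above 0 but under a mean of 0.5 FPKM, and 143 passed that filter. The numbers for chromosome 20 were 30, 239 and 111. By the recovered numbers, no more than 3 fragments in any library stood behind 526 members. Such numbers are the smallest possible at a fitted length, and 698 of the 882 members above 0 were whole at the annotated length. A log2 fold change was computed only for the 254 that passed. Of those, 45 were shorter than 200 bases, and 60 did not reach 10 fragments in any library. Passing can depend on 1 line: 10 members of chromosome 10 and 20 of chromosome 20 passed only because of TF1-BAR, and 18 and 5 only because of TF1-BA, and such members had to differ. Counts and medians over those that passed are therefore a description of them and not of all members.

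The noncoding genes of chromosome 10 that passed the filter were lower in TF1-BAR by a small margin and less so than the coding genes of that chromosome. All fold changes below are differences of log2(FPKM + 0.5), TF1-BAR minus TF1-BA, and are 0 where the lines are equal. Their median was -0.14 over 143 noncoding genes, with the middle of the distribution from -0.41 to 0.20 (quartiles), against -0.42 over 450 coding genes. Below 0 were 63.6% of the noncoding and 84.2% of the coding genes, where all genes gave 42.7% below and 57.3% above 0. The noncoding median lay above the coding median by 0.28, and by 0.25 to 0.36 in the 4 pairings of 1 TF1-BAR with 1 TF1-BA library. The noncoding medians of the 4 pairings were -0.07, -0.17, -0.10 and -0.15, so that each pairing put the noncoding genes below 0 and above the coding genes. The size depends on the filter, which 18 of the 143 passed only because of TF1-BA and 10 only because of TF1-BAR. Members under the filter have a mean below 0.5 FPKM, so the 0.5 FPKM added to each value draws their changes towards 0. With no filter the medians were -0.03 over 532 members above 0 and -0.23 over the coding genes, and 53.9% of those members had a change below 0.

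The noncoding genes of chromosome 20 that passed the filter were higher in TF1-BAR, with a median close to that of its coding genes. It was 0.43 over 111 genes (quartiles -0.01 and 0.76), against 0.39 over 326 coding genes. This likeness depends on the filter, which 20 of the 111 passed only because of TF1-BAR and 5 only because of TF1-BA. As on chromosome 10, the added 0.5 FPKM draws the changes of members under the filter towards 0. With no filter the medians were 0.10 over 350 noncoding genes and 0.29 over the coding genes. Above 0 were 72.1% of the noncoding and 90.5% of the coding genes. The noncoding median exceeded the coding median by 0.04, which is within the spread of the pairings, from -0.13 to 0.12. The noncoding medians of the pairings were 0.46, 0.51, 0.37 and 0.30. The distributions on chromosome 20 had like medians but unlike widths, since the coding quartiles were 0.21 and 0.60.

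**Figure D1:**
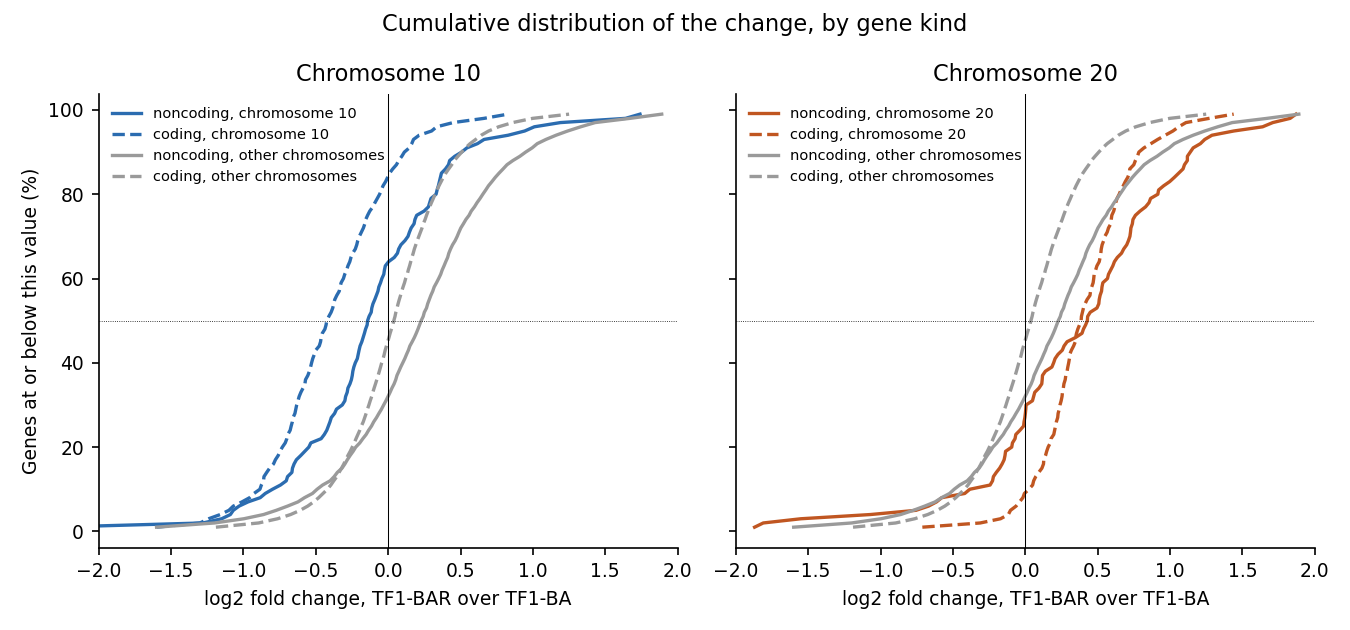
Cumulative share of genes (%, vertical axis) at or below each log2 fold change (horizontal axis, TF1-BAR over TF1-BA) for chromosome 10 (left) and chromosome 20 (right). Solid lines are noncoding and dashed lines coding genes, in grey for the other chromosomes, and the lines cross 50% at -0.14 and -0.42 on chromosome 10, at 0.43 and 0.39 on chromosome 20, and at 0.23 and 0.04 elsewhere.

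Noncoding genes did not start from 0 elsewhere. Over the 3577 noncoding genes of the other chromosomes the median was 0.23 and 32.0% were below 0, against 0.04 over 10909 coding genes and 0.07 over all 15519 genes that passed the filter. Set against noncoding genes elsewhere, the noncoding genes of chromosome 10 lay at -0.37, and set against coding genes elsewhere its coding genes lay at -0.46. For chromosome 20 these differences were 0.20 and 0.35. Set this way, with 0.5 FPKM added, the noncoding difference on either chromosome had the direction of the coding one and was smaller than it. Its size depends on the FPKM added. With 0.1 FPKM added the noncoding differences were -0.48 on chromosome 10 and 0.24 on chromosome 20, and with 1 FPKM -0.28 and 0.165. The coding differences at those settings are not given, so whether the noncoding ones were smaller there was not tested. With no filter on low values the noncoding differences were -0.10 on chromosome 10 and 0.03 on chromosome 20. With genes under 200 bases left out, that of chromosome 20 was 0.11. Of 23 chromosomes, chromosome 10 had the lowest and chromosome 20 the highest median for noncoding genes as well as for coding genes. The noncoding medians of the other 21 ran from 0.06 to 0.34 and their coding medians from -0.05 to 0.10. Across the 23 chromosomes, which share the 4 libraries and their scaling, Pearson's r between coding and noncoding medians was 0.825, and it was 0.256 over the 21 without chromosomes 10 and 20.

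**Figure D2:**
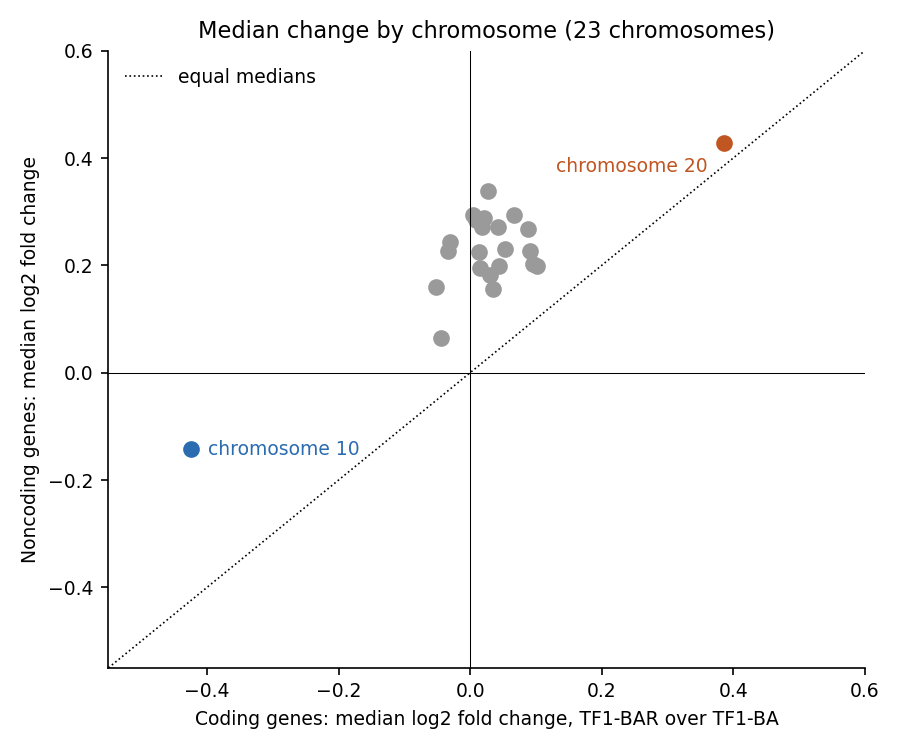
Median log2 fold change (TF1-BAR over TF1-BA) of the coding genes (horizontal axis) and noncoding genes (vertical axis) of each of 23 chromosomes, 1 point each, with a dotted line where both are equal. Chromosome 10 sits at -0.42 and -0.14, chromosome 20 at 0.39 and 0.43, and the grey points of the other 21 chromosomes lie between -0.05 and 0.10 on the horizontal and 0.06 and 0.34 on the vertical axis.

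The summed fragments of all 959 members, which need no filter, differed little on chromosome 10 and more on chromosome 20. The 579 noncoding genes of chromosome 10 took 818 and 800 of each 1000000 library fragments in TF1-BA and 749 and 756 in TF1-BAR, while its coding genes took 37517 and 36562, then 27211 and 26852. The noncoding sums of the lines did not overlap and lay close together, and the coding sums lay far apart. Summed as FPKM, which weights short genes more, the noncoding genes of chromosome 10 had 648 and 658 in TF1-BA and 643 and 650 in TF1-BAR, and here the lines overlapped. Of these sums, RPL13AP5 alone gave 164 and 163 in TF1-BA and 208 and 211 in TF1-BAR, so the overlap does not describe the other members. The fragment sum also included RPL13AP5, which was higher in TF1-BAR, and without it the other members took 718 and 701 fragments in TF1-BA and 621 and 627 in TF1-BAR. The 380 noncoding genes of chromosome 20 took 887 and 852 of each 1000000 fragments in TF1-BA and 1371 and 1229 in TF1-BAR, beside coding sums of 23969 and 23975, then 30269 and 31480. NORAD gave most of that sum, with 628 and 587 in TF1-BA and 1026 and 862 in TF1-BAR. Without NORAD, the others took 258 and 265, then 344 and 367, and the lines still did not overlap. The summed FPKM of the chromosome 20 members was 513 and 538 in TF1-BA and 746 and 773 in TF1-BAR.

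Calls were few. A gene was called where limma gave a log2 fold change of 1 or more in either direction with its adjusted p below 0.05. Over all 15519 genes 1.69% were called lower and 3.05% higher, 4.75% in all, and over the 3834 noncoding genes among them 1.8% and 6.16%. On chromosome 10, 7 noncoding genes (4.90%) were called lower and 3 (2.10%) higher. On chromosome 20, 14 (12.6%) were called higher and 4 (3.60%) lower. With quantile normalization the split was 10 lower and 2 higher on chromosome 10 and 8 higher and 4 lower on chromosome 20. Since this contrast chose the chromosomes, nothing is read from these shares. Of the 28 called members, 11 had fewer than 10 fragments in every library. The number called fell to 3 without TF1-BA replicate 1, to 4 without TF1-BA replicate 2, to 12 without TF1-BAR replicate 2 and to 22 without TF1-BAR replicate 1. Among all genes, those with an adjusted p below 0.05 numbered 144 and 42 without TF1-BA replicates 1 and 2, and 3176 and 1028 without TF1-BAR replicates 1 and 2. The count of genes whose lines do not overlap needs no test: 42.0% of the chromosome 10 members had both TF1-BAR values under both TF1-BA values and 21.0% had both above, where all genes gave 28.4% and 40.9%, together 69.3%. On chromosome 20 the shares were 10.8% lower and 49.5% higher. Among coding genes they were 77.1% lower on chromosome 10 and 82.5% higher on chromosome 20.

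Noncoding genes were read far less deeply than coding genes, and their replicates differed more. The median member that passed had 1.17 FPKM on chromosome 10 and 1.18 on chromosome 20, against 6.49 and 10.7 for coding genes, which is 19.0 and 12.5 fragments per library against 523 and 787. The median absolute difference between TF1-BAR replicates was 0.24 on chromosome 10 and 0.32 on chromosome 20 for noncoding genes and 0.13 and 0.11 for coding genes, on the log2 scale. The gap between noncoding and coding genes of chromosome 10 stood at the higher levels. With a mean of at least 2 FPKM, 46 noncoding genes had a median of -0.06 and 359 coding genes -0.47, while under 2 FPKM the medians were -0.17 over 97 noncoding and -0.16 over 91 coding genes. The medians of chromosome 20 were 0.53 over 41 noncoding and 0.37 over 282 coding genes of at least 2 FPKM, and 0.24 over 70 and 0.46 over 44 under it. With 96 and 66 members whose mean over the libraries was at least 10 fragments, an alternative chosen after seeing the data, the medians were -0.14 and 0.41. With no filter at all, the difference from the coding genes of chromosome 20 turned to -0.19.

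By class, the medians of chromosome 10 lay below 0 in each of the 5 classes and those of chromosome 20 above it. In single pairings of a TF1-BAR with a TF1-BA library, the medians of chromosome 10 reached 0.03 for antisense genes, 0.01 for intergenic lncRNAs and 0.54 for small RNA genes. Antisense genes had medians of -0.10 on chromosome 10 (44 genes) and 0.06 on chromosome 20 (29 genes), with 0.24 over 792 antisense genes elsewhere. The antisense median of chromosome 20 was thus under that of other chromosomes by 0.19, the single class and chromosome at which the difference from elsewhere went against the coding genes. Intergenic lncRNAs had -0.09 (23 genes) and 0.54 (21 genes), with 0.26 elsewhere. Other long noncoding genes, which include processed transcripts and sense-intronic genes, had -0.19 (14 genes) and 0.47 (8 genes), with 0.18 elsewhere. Pseudogenes had -0.23 (42 genes) and 0.33 (26 genes), with 0.21 elsewhere. Small RNA genes had -0.09 (20 genes) and 0.71 (27 genes), with 0.22 elsewhere, and 16 of the small RNA genes on each chromosome had fewer than 10 fragments in every library. With genes under 200 bases left out, the median of chromosome 20 was 0.34 and lay under its coding median by 0.05.

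**Figure D3:**
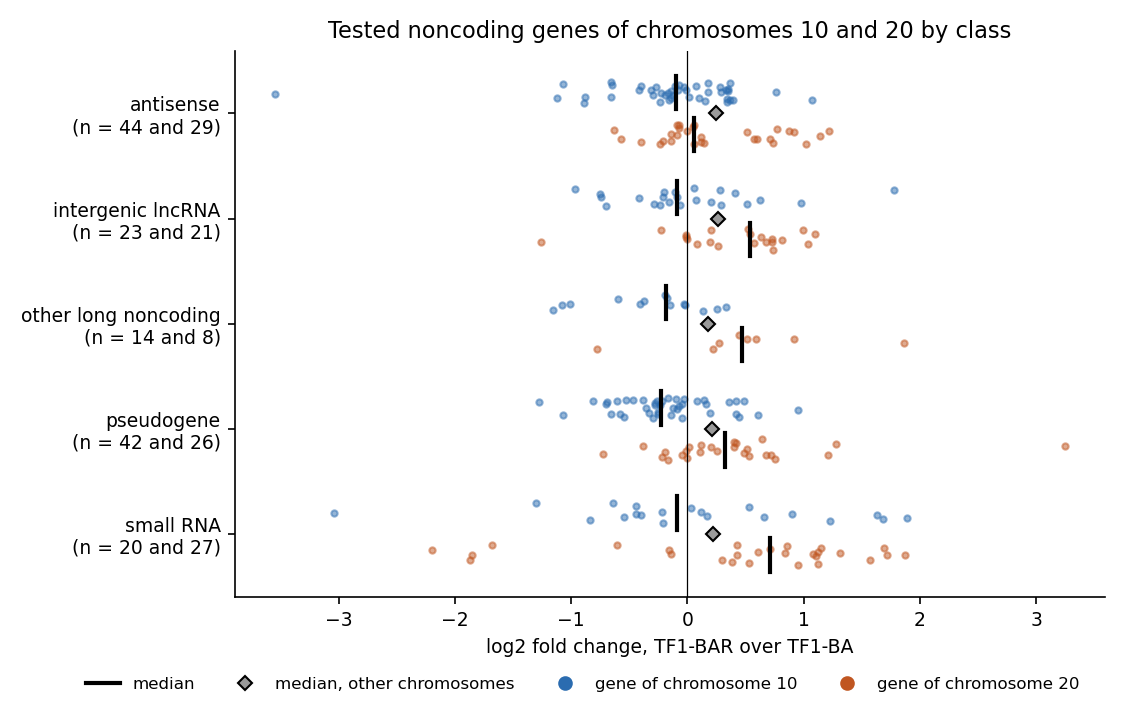
Log2 fold change (TF1-BAR over TF1-BA, horizontal axis) of each of the 143 and 111 members that passed the filter, 1 point per gene, by class, with the upper row of each class for chromosome 10 and the lower row for chromosome 20. Black bars are class medians, from -0.23 to -0.09 on chromosome 10 and from 0.06 to 0.71 on chromosome 20, and grey diamonds are the medians of the same class on other chromosomes, from 0.18 to 0.26.

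Along the chromosomes the medians of both kinds varied. In stretches of 20 Mb, the coding medians of chromosome 10 ran from -0.60 to -0.32, and the noncoding medians were -0.17, -0.09, -0.29, 0.07, -0.30, 0.07 and -0.07 from its start to its end. Both noncoding values above 0, between 60 and 80 Mb and between 100 and 120 Mb, lay beside coding medians of -0.46 and -0.39. On chromosome 20 the noncoding medians were 0.43, 0.42, 0.61 and 0.09 and the coding medians 0.48, 0.31, 0.36 and 0.45. The stretches held from 12 to 50 noncoding genes.

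The 10 members with the highest levels among genes of at least 200 bases were divided on chromosome 10 and of 1 direction on chromosome 20. On chromosome 10 their means ran from 8.62 to 187 FPKM, with 6 lower and 4 higher in TF1-BAR, and none overlapped between lines, where 69.3% of all genes did not. On chromosome 20 they ran from 7.13 to 145 FPKM, all 10 had a fold change above 0, and the lines of 2 overlapped. These members carry much of the RNA: RPL13AP5 alone made up 28.7% of the summed FPKM of the chromosome 10 members and NORAD 22.6% on chromosome 20.

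The higher ones on chromosome 10 were led by ribosomal protein pseudogenes. RPL13AP5 (chr10:96750288-96750899) had 164 and 163 FPKM in TF1-BA and 208 and 211 in TF1-BAR, a log2 fold change of 0.36 (SE 0.05). RPL21P16 had 38.0 and 43.9, then 53.6 and 56.4, a change of 0.42 (SE 0.09). Both TF1-BAR values of either gene lay above both TF1-BA values. Their parents, RPL13A on chromosome 19 and RPL21 on chromosome 13, encode proteins of the large ribosomal subunit and had changes of 0.31 and 0.35. A processed pseudogene shares most of its sequence with the parent, so reads of one can be counted at the other, and which gene the fragments came from was not tested.

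A pair of antisense genes was also higher on chromosome 10, beside coding genes that were lower. AL731557.1, antisense to the vesicular monoamine transporter gene SLC18A2, had 14.1 and 12.2 FPKM in TF1-BA and 16.8 and 16.9 in TF1-BAR, while SLC18A2 had 10.7 and 9.44, then 7.24 and 8.54. PROSER2-AS1, whose start region is shown above, had 8.16 and 8.97 FPKM in TF1-BA and 9.88 and 12.1 in TF1-BAR. PROSER2, which it overlaps on the other strand, had 6.70 and 6.71, then 3.91 and 4.35. The log2 fold changes were 0.35 and -0.33 in the first pair and 0.34 and -0.64 in the second, and in all 4 genes the lines did not overlap, as in 69.3% of all genes. The kit is not stated to keep strand, so reads from overlapping genes of opposite strands cannot be told apart where they share sequence.

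The lower members of high level on chromosome 10 included AL157895.1 (chr10:19710328-19728550), antisense within MALRD1. It had 41.5 and 39.2 FPKM in TF1-BA and 18.6 and 17.9 in TF1-BAR, a change of -1.12 (SE 0.07), and the values lay far apart between lines and close within them. RHEBP2, a pseudogene of RHEB, the GTPase that switches on mTORC1, had 12.1 and 11.1, then 7.51 and 6.53, a change of -0.69 against -0.26 for RHEB on chromosome 7. AC022400.7 starts 154 bases from SEC24C, a coat protein gene of vesicles that leave the endoplasmic reticulum, and had 17.2 and 14.9, then 12.3 and 11.6. Its change of -0.41 was close to the -0.44 of SEC24C. Of the other lower ones, AL365273.1 had -0.37, AC005871.2 -0.16 and AC073585.1 -0.14.

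The largest difference among all members of chromosome 10 was at ST8SIA6-AS1 (chr10:17386936-17413503), antisense to the sialyltransferase gene ST8SIA6. It had 10.2 and 10.6 FPKM in TF1-BA and 0.533 and 0.338 in TF1-BAR, from 372 and 333 fragments to 17 and 11, a change of -3.55 (SE 0.13). ST8SIA6 itself had 129 and 127 FPKM in TF1-BA and 22.9 and 20.1 in TF1-BAR, a change of -2.55. Both genes of this overlapping pair were lower in both TF1-BAR libraries than in either TF1-BA library. ADIRF-AS1 had 1.77 and 1.87 FPKM in TF1-BA and 0.475 and 0.736 in TF1-BAR, from 184 and 166 fragments to 43 and 68, a change of -1.08 (SE 0.18). It overlaps MMRN2, whose 1.83 and 1.76 FPKM in TF1-BA and 3.65 and 3.14 in TF1-BAR went the other way.

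The other called members of chromosome 10 that are named here rest on few fragments, and not all called members are named. Of the 7 called lower and 3 called higher, 2 and 2 had fewer than 10 fragments in every library. MIR4678 had 5 and 4 fragments in TF1-BA and 0 and 0 in TF1-BAR. Against a floor of 3 fragments per library in TF1-BAR, with the TF1-BA numbers taken as exact, that is 1.42-fold lower. AC063965.1 had 12 and 14 fragments in TF1-BA and 5 and 2 in TF1-BAR. AL365356.5, an intergenic lncRNA gene, went up from 1 and 4 fragments to 21 and 22. MIR146B had 0 and 1, then 3 and 3 fragments, and MIR4481 1 in each TF1-BAR library and 0 in TF1-BA. The fragments of MIR146B and MIR4481 do not exceed the floor of 3 in any library.

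NORAD (chr20:36045622-36050960), an lncRNA that binds Pumilio proteins and guards chromosome stability, was the most abundant long member of chromosome 20. It had 118 and 110 FPKM in TF1-BA and 192 and 161 in TF1-BAR, from 9084 to 16179 fragments per library, a log2 fold change of 0.63 (SE 0.10). The lines did not overlap, and the nearest coding gene that passed the filter, EPB41L1, had a change of 0.62. FRG1CP and FRG1BP, pseudogenes of FRG1, had 22.8 and 23.4, then 31.8 and 35.4 FPKM, and 7.57 and 8.16, then 11.7 and 9.48 FPKM. Their changes were 0.53 and 0.40. MHENCR had 22.1 and 18.6 in TF1-BA and 22.7 and 21.4 in TF1-BAR, where the lines overlapped, and a change of 0.12, next to 0.13 for GMEB2, which starts 186 bases away.

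Several members of chromosome 20 shared their direction with the coding gene beside them. MCTS2P, a retrocopy inside an intron of HM13, had 5.18 and 5.80, then 9.64 and 9.46 FPKM, a change of 0.75 against 0.69 for HM13. NRSN2-AS1, antisense to the transcription factor gene SOX12, had 5.13 and 4.43, then 8.92 and 10.0 FPKM, a change of 0.92 against 0.77. AL133325.3, an intergenic lncRNA gene 8076 bases from the homeobox gene NKX2-2, had 6.92 and 6.92, then 11.5 and 12.1 FPKM, a change of 0.73 against 0.68. In all 3 both TF1-BAR values lay above both TF1-BA values, as in 40.9% of all genes. BX640514.2 differed from its neighbour: 8.60 and 5.79, then 11.4 and 12.7 FPKM, a change of 0.73, beside SLCO4A1 at 0.06. RPL12P4 had a change of 0.64, and its parent RPL12, on chromosome 9, one of 0.49. RPL41P1 is shorter than 200 bases and was picked out after its values were seen. It had 89.6 and 109 FPKM in TF1-BA and 121 and 141 in TF1-BAR, a change of 0.40 beside 0.32 for RPL41.

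The largest difference among all members of chromosome 20 was at CST12P (chr20:23475700-23479798), a pseudogene in the cluster of cystatin genes, whose products inhibit cysteine proteases. It had 0 fragments in both TF1-BA libraries and 25 and 24 in TF1-BAR, 4.38 and 4.12 FPKM. Against the floor of 3 fragments per library in TF1-BA, with the TF1-BAR numbers taken as exact, that is 8.55-fold higher. The coding gene CST11, 22843 bases away, was likewise at 0 in TF1-BA and had 7.40 and 8.24 FPKM in TF1-BAR. AL356414.1, an intergenic lncRNA gene, went against its chromosome with 2.02 and 3.49 FPKM in TF1-BA and 0.832 and 0.816 in TF1-BAR, a change of -1.26 (SE 0.24). AL109614.1, within BLCAP, had 1 and 7 fragments in TF1-BA and 18 and 24 in TF1-BAR. MIR298 had 6 and 4, then 12 and 24 fragments, and an annotated copy of 5S_rRNA 4 and 5, then 15 and 22. The other members called lower were small RNA genes with at most 3 fragments in any library.

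**Figure D4:**
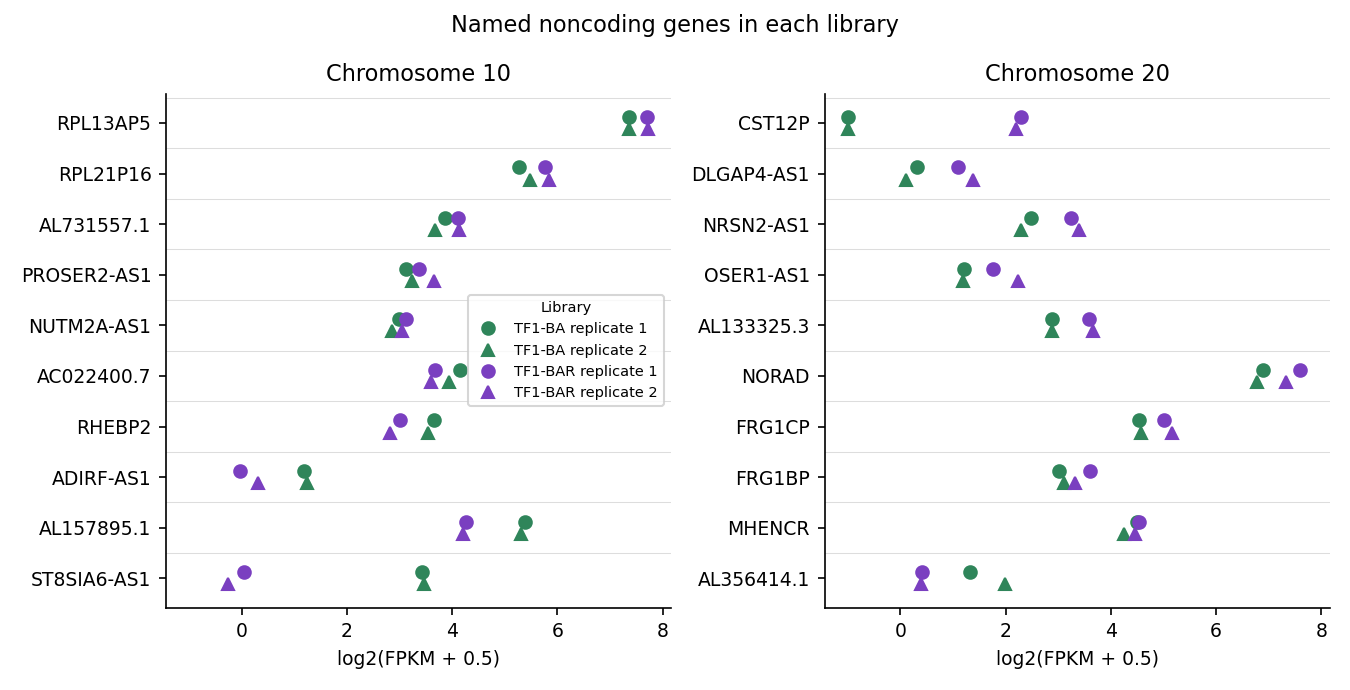
Level of 10 named members of chromosome 10 (left) and 10 of chromosome 20 (right) as log2(FPKM + 0.5), with green symbols for TF1-BA, violet for TF1-BAR, circles for replicate 1 and triangles for replicate 2. ST8SIA6-AS1, AL157895.1 and ADIRF-AS1 show violet symbols left of the green ones, the ribosomal protein pseudogenes RPL13AP5 and RPL21P16 show them to the right, and on chromosome 20 they lie to the right except for AL356414.1 and for MHENCR, whose lines overlap.

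Among the noncoding genes listed by name, mostly lncRNA genes, 13 of 16 for chromosome 10 and 11 of 17 for chromosome 20 were found in the table, and 9 and 6 of them passed the filter. On chromosome 10 the 9 were divided, 5 below and 4 above 0 with a median of -0.03, and 0 were called, where 4.75% of all genes were. ZEB1-AS1, antisense to the gene of the transcription factor ZEB1, had 2.37 and 2.40 FPKM in TF1-BA and 2.91 and 1.85 in TF1-BAR, while ZEB1 had 9.50 and 9.23, then 5.80 and 5.90. The lines overlapped for the antisense gene and not for the coding gene. DNAJC9-AS1 had 2.00 and 1.79, then 1.35 and 1.52 FPKM, a change of -0.31, and PRKCQ-AS1 7.32 and 6.05, then 5.56 and 5.96, a change of -0.19. NUTM2A-AS1 had a change of 0.15, NUTM2B-AS1 of 0.37 and ZMIZ1-AS1 of 0.33. STAM-AS1, RPARP-AS1 and LINC00863 lay between -0.07 and 0.06 and overlapped between lines. LINC01468, DLG5-AS1, CASC2 and another row named DNAJC9-AS1 were under the filter and FAS-AS1 was at 0 in every library.

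On chromosome 20 all 6 that passed, which include the small nucleolar RNA gene SNORA71A and the pseudogene FRG1BP, had a fold change above 0, with a median of 0.69. Of the 6, 1 was called higher, where 3.05% of all genes were. The lines of 5 did not overlap, where 69.3% of all genes did not. OSER1-AS1, which starts 169 bases from OSER1, had 1.80 and 1.77 FPKM in TF1-BA and 2.87 and 4.24 in TF1-BAR, a change of 0.81 against 0.31 for OSER1. DLGAP4-AS1 (chr20:36507702-36573391) had 0.751 and 0.584, then 1.64 and 2.12 FPKM, from 33 and 22 fragments to 63 and 83. Its change of 1.02 (SE 0.17) stood beside 0.06 for DLGAP4, which it overlaps, and 0.59 for the repressor gene TGIF2, whose start lies 97 bases from its own. GNAS-AS1, the antisense RNA of the imprinted GNAS locus, had 0.637 and 0.619, then 1.16 and 1.63 FPKM, a change of 0.74 against 0.48 for GNAS. SNORA71A overlapped between lines. LINC00261, an lncRNA gene known from endoderm, was under the filter with 0.200 and 0.151, then 0.617 and 0.796 FPKM, which is 20 and 13, then 54 and 71 fragments, and the lines did not overlap. MIR646HG, MIR1-1HG, LINC01270 and MIR663AHG had means from 0.00308 to 0.418 FPKM.

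Members were also set beside the coding gene next to them, and the shares of pairs with the same sign were not tested against each other. Overlap with a coding gene on the opposite strand left 47 pairs on chromosome 10 in which both genes passed the filter, and 30 had the same sign, 24 of them both below 0. In 12 the noncoding gene was above 0 and the coding gene below. On chromosome 20, 21 of 30 such pairs had the same sign, 18 of them both above 0. Of pairs that overlap on the same strand, 9 of 16 on chromosome 10 and 17 of 22 on chromosome 20 had the same sign. Among members that overlap no coding gene, 37 of 67 on chromosome 10 and 41 of 55 on chromosome 20 had the sign of the nearest coding gene. Without any overlap, the noncoding medians were -0.16 (67 genes) and 0.51 (55 genes). On chromosome 20, members on the opposite strand of a coding gene had a median of 0.09 (32 genes) and those on the same strand of 0.55 (24 genes). The medians of chromosome 10 were -0.115 (58 genes) and -0.286 (18 genes).

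Pairs that start within 1000 bases of each other give the closest view of a shared start region. On chromosome 10, 20 noncoding genes had such a coding partner, with medians of -0.10 for the noncoding and -0.35 for the coding genes, and 11 pairs had the same sign. In 6 pairs the noncoding gene was above 0 and the coding gene below. On chromosome 20 there were 14 such pairs with medians of 0.19 and 0.33, and 10 pairs had both genes above 0.

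**Figure D5:**
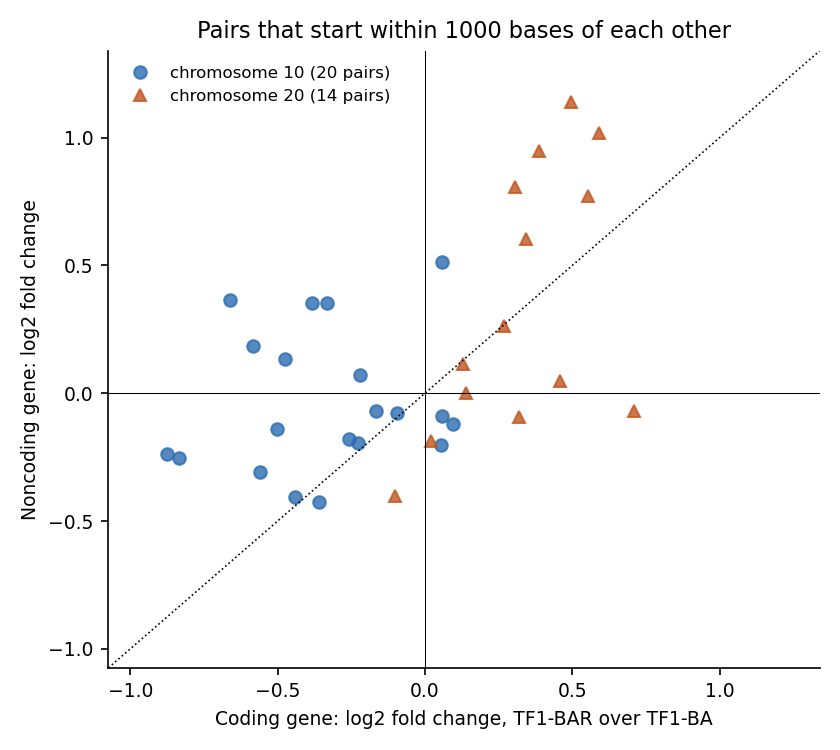
Log2 fold change (TF1-BAR over TF1-BA) of the coding gene (horizontal axis) and of the noncoding gene (vertical axis) in pairs that start within 1000 bases of each other, with circles for the 20 pairs of chromosome 10, triangles for the 14 of chromosome 20 and a dotted line where both are equal. Of the circles, 10 lie in the lower left and 6 in the upper left, and of the triangles, 10 lie in the upper right, 1 of them just above 0.

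Pseudogenes could be set beside the parent named in their symbol. Parents that passed the filter and lie on another chromosome were found for 23 pseudogenes of chromosome 10 and 14 of chromosome 20. The medians were -0.05 for the pseudogenes and -0.12 for the parents on chromosome 10, and 0.33 and 0.14 on chromosome 20. The same sign was seen in 14 of 23 and 8 of 14 pairs. Ribosomal protein pseudogenes had a median of 0.22 over 6 genes on chromosome 10, 4 above and 2 below 0, against -0.25 over its 36 other pseudogenes, of which 29 were below 0. On chromosome 20 the medians were 0.33 over 6 and 0.30 over 20, and elsewhere 0.30 over 59 and 0.20 over 1001.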

How the data were processed

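RNA was sequenced by the authors from 2 libraries each of TF1-BA and TF1-BAR cells as 150-base paired-end reads. Per the submitters' processing notes, reads were mapped to GRCh38 with TopHat2 2.0.13 and summarised with Cufflinks and Cuffdiff 2.2.0. The authors deposited FPKM for 32673 genes, with biotype and position. The release of their annotation is not given in the sources used here. Samples were grouped by their titles.

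FPKM were compared as log2(FPKM + 0.5) with limma 3.58.1 in R 4.3.3 (lmFit, then eBayes with its trend option) over the 15519 genes with a mean of at least 0.5 FPKM, with Benjamini-Hochberg adjustment. The paper used DESeq2, which needs counts, so it was not run on FPKM, and calls follow the thresholds of its methods. The fit was also run on simulated data in which every gene had the same added spread. That does not mirror the members of few fragments, and nothing is drawn from it here. Whole fragments were recovered from FPKM, gene length and library size: 14816 genes were whole within 0.01 at the GENCODE 44 length and 16037 within 0.002 at a fitted length, where the fragment number is the smallest possible, while 0 of 300 were whole with wrong library sizes. Fragment numbers and floors cover counting error only, and a floor covers that of the line at 0 alone. Overlaps and starts come from the positions in the table.

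Named members are the 10 of at least 200 bases with the highest mean FPKM per chromosome, up to 5 called per direction whose lines do not overlap, and a list of noncoding genes, mostly lncRNA genes. Members and lists were chosen with earlier results of these data known.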

Additional observations from a re-analysis of the deposited data

How the results depend on the processing

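The medians kept their sign in every alternative that gives one: from -0.27 to -0.03 on chromosome 10 and from 0.10 to 0.61 on chromosome 20. The noncoding median of chromosome 10 stayed above its coding median throughout. On chromosome 20 that difference had no firm sign, and it was -0.189 with no filter on low values, -0.00885 with quantile normalization, -0.0192 without TF1-BA replicate 1 and -0.0467 without genes under 200 bases. The causes were not tested.

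The scale and the filter moved the medians, with the median of all genes between -0.01 (upper-quartile scaling) and 0.14 (TPM). For chromosome 10, upper-quartile scaling gave a median of -0.211, quantile normalization -0.266 with a difference from coding genes of 0.214 and 69.2% below 0, and no filter -0.0275, 0.206 and 53.9%. For chromosome 20, the median was 0.538 with 0.1 FPKM added, 0.530 with a mean FPKM of at least 1, 0.605 as TPM, 0.330 with quantile normalization, 0.540 with limma voom on recovered fragments and 0.0997 with no filter. The share above 0 was 76.2% with a mean FPKM of at least 1, 64.0% with no filter, 66.7% with upper-quartile scaling, 75.7% as TPM, 62.2% with quantile normalization, 76.4% for members that overlap no coding gene and 77.3% for members with a mean of at least 10 fragments.

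Of the 28 called members, 25 were also called with the block, 17 with voom (which called 28) and 7 with no filter. Over all 15519 genes, 263 were called lower and 474 higher in the reported fit. These counts were 268 and 487 with the block, 380 and 759 with voom, and 201 and 307 of 30853 genes with no filter. All 4 counts of calls stayed within 1.5 times the reported ones with 0.1 FPKM added, upper-quartile scaling, TPM, the replicate block, no trend, without pseudogenes and without ribosomal protein pseudogenes. Called lower on chromosome 10 were 3 with 1 FPKM added, 3 with no filter, 11 with voom, 2 without overlaps, 20 with no fold change threshold and 3 with a mean of at least 10 fragments. Called higher there were 1 without genes under 200 bases, 12 with no fold change threshold and 1 with a mean of at least 10 fragments. Called higher on chromosome 20 were 9 with 1 FPKM added, 3 with no filter, 8 with quantile normalization, 6 without overlaps, 7 without genes under 200 bases, 29 with no fold change threshold and 8 with a mean of at least 10 fragments. Called lower there were 1 with a mean FPKM of at least 1, with no filter, without overlaps, without genes under 200 bases and with a mean of at least 10 fragments, and 2 with voom. The set with a mean of at least 10 fragments and that without ribosomal protein pseudogenes were chosen after seeing the data, and the latter kept each value within the spread.

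With 1 library left out, the lone library of its line was assumed to vary like the other line. The median then ran from -0.207 to -0.102 on chromosome 10 and from 0.376 to 0.467 on chromosome 20, and the difference from coding genes from 0.208 to 0.321 and from -0.0192 to 0.0987. The shares ran from 58.0% to 65.7% below 0 and from 73.0% to 75.7% above 0. Calls on chromosome 10 ran from 2 to 6 lower and from 0 to 2 higher, and on chromosome 20 from 1 to 12 higher and from 0 to 2 lower.

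Same-numbered libraries deviated from their line means with a correlation of 0.0646 over 15519 genes, so the numbers were not taken to pair the samples. With the replicate number as a block, 6 members of chromosome 10 were called lower and 3 higher, and 16 of chromosome 20 higher and 4 lower, while the medians (-0.142 and 0.429) cannot change. Depth limits single members: 526 of 959 had at most 3 fragments in every library by the recovered numbers.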
